A study of Mus musculus with 12 samples.

Results

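The Mex3 and Musashi genes encode families of RNA-binding proteins, and their transcripts were followed here across 6 populations of cells isolated from the mouse small intestine. All probe sets that the platform annotation pairs with Mex3a, Mex3b, Mex3c, Mex3d, Msi1 or Msi2 were taken, which gave 10 probe sets for 5 of the 6 genes, against 28898 single-gene probe sets for 17097 genes in all. No probe set used here is listed for Mex3d, and none of the 10 is shared with another gene. Mex3a is read by 1455529_PM_at (the first probe set below) and 1436018_PM_at (the second), Mex3b by 1437152_PM_at and Mex3c by 1454612_PM_at. Msi1 has 1421409_PM_at, 1452287_PM_at and 1444306_PM_at, and Msi2 has 1435520_PM_at, 1435521_PM_at and 1436818_PM_a_at, called the first, the second and the third below.

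The populations are Mex3a-high, Mex3a-low and Mex3a-negative cells, each divided into Lgr5-high and Lgr5-low cells. Each was obtained from 2 biological replicates, MR793 and MR820, as primary untreated cells, with RNA from 2000 cells per sample amplified for 22 cycles and hybridised to 1 array, so that n = 2 per population and 12 arrays in all. The strain, age and sex of the animals, and the reagent or reporter by which the Mex3a and Lgr5 levels were read, were not stated in the labels. Lgr5 is an R-spondin receptor and the usual marker of crypt base stem cells. The comparisons ask what distinguishes the Mex3a gates within 1 Lgr5 gate, and how Lgr5-high cells differ from Lgr5-low cells.

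Mex3 proteins bind RNA through KH domains and carry a RING finger of the ubiquitin ligase type. They act on chosen messenger RNAs after transcription, by repressing translation or by promoting decay. Musashi proteins bind RNA through RNA recognition motifs (RRMs), and their best known targets are the transcripts of the Notch inhibitor Numb and the cell cycle inhibitor p21, encoded by Cdkn1a. In the intestine Msi1 is a marker of crypt stem and progenitor cells, Msi2 is its close paralogue, and Mex3a marks a slowly cycling share of Lgr5-positive crypt cells. Mex3a and Lgr5 define the gates, so their own differences between gates check the isolation and are not findings.

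Values are log2 expression as deposited, and every difference is in log2 units, so that 1 unit is a 2-fold change. A difference was called at an adjusted p under 0.05 in limma, adjusted over all 45037 probe sets that are not controls, with the spread estimated from all 12 arrays together. One array, MR793 of the Mex3a-high Lgr5-high population, differed from the rest and is called the array apart below. It correlated with the other arrays at 0.895 to 0.915, while the other 11 correlated among themselves at 0.971 to 0.996. The median residual SD of a probe set was 0.198 with this array and 0.115 without it, so values that rest on it are also given without it. Lgr5 separated the gates, at 9.00 to 10.21 on the Lgr5-high arrays and 6.37 to 8.05 on the Lgr5-low arrays, and the crypt gene Olfm4 was at 12.50 to 13.08 on all 12. In these bulk samples, fewer cells of a type and less RNA per cell cannot be told apart.

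The array medians lay between 5.83 and 6.04 log2, with a mean of 5.88. A probe set without signal still receives a value of that order or lower, and differences among such probe sets are compressed. Of the 10 probe sets, 4 lay less than 1 log2 above the mean array median. These were both Mex3a probe sets (means of 5.72 and 5.35 over the 12 arrays), Mex3b (3.97) and the third Msi1 probe set (6.72). Mex3a passed its array's own median on 2 of 12 arrays with the first probe set and on 1 of 12 with the second. Mex3b did so on 0 of 12, at a mean percentile of 1.59 among all probe sets, so it lay far below the median rather than near it. The other 6 were clear of this range: Mex3c by 1.95, the first and second Msi1 probe sets by 3.94 and 1.10, and the 3 Msi2 probe sets by 3.64, 3.25 and 2.36. With a margin of 2 log2 in place of 1, Mex3c and the second Msi1 probe set would also lie under it, and with 0.5 the third Msi1 probe set would not.

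**Figure D1:**
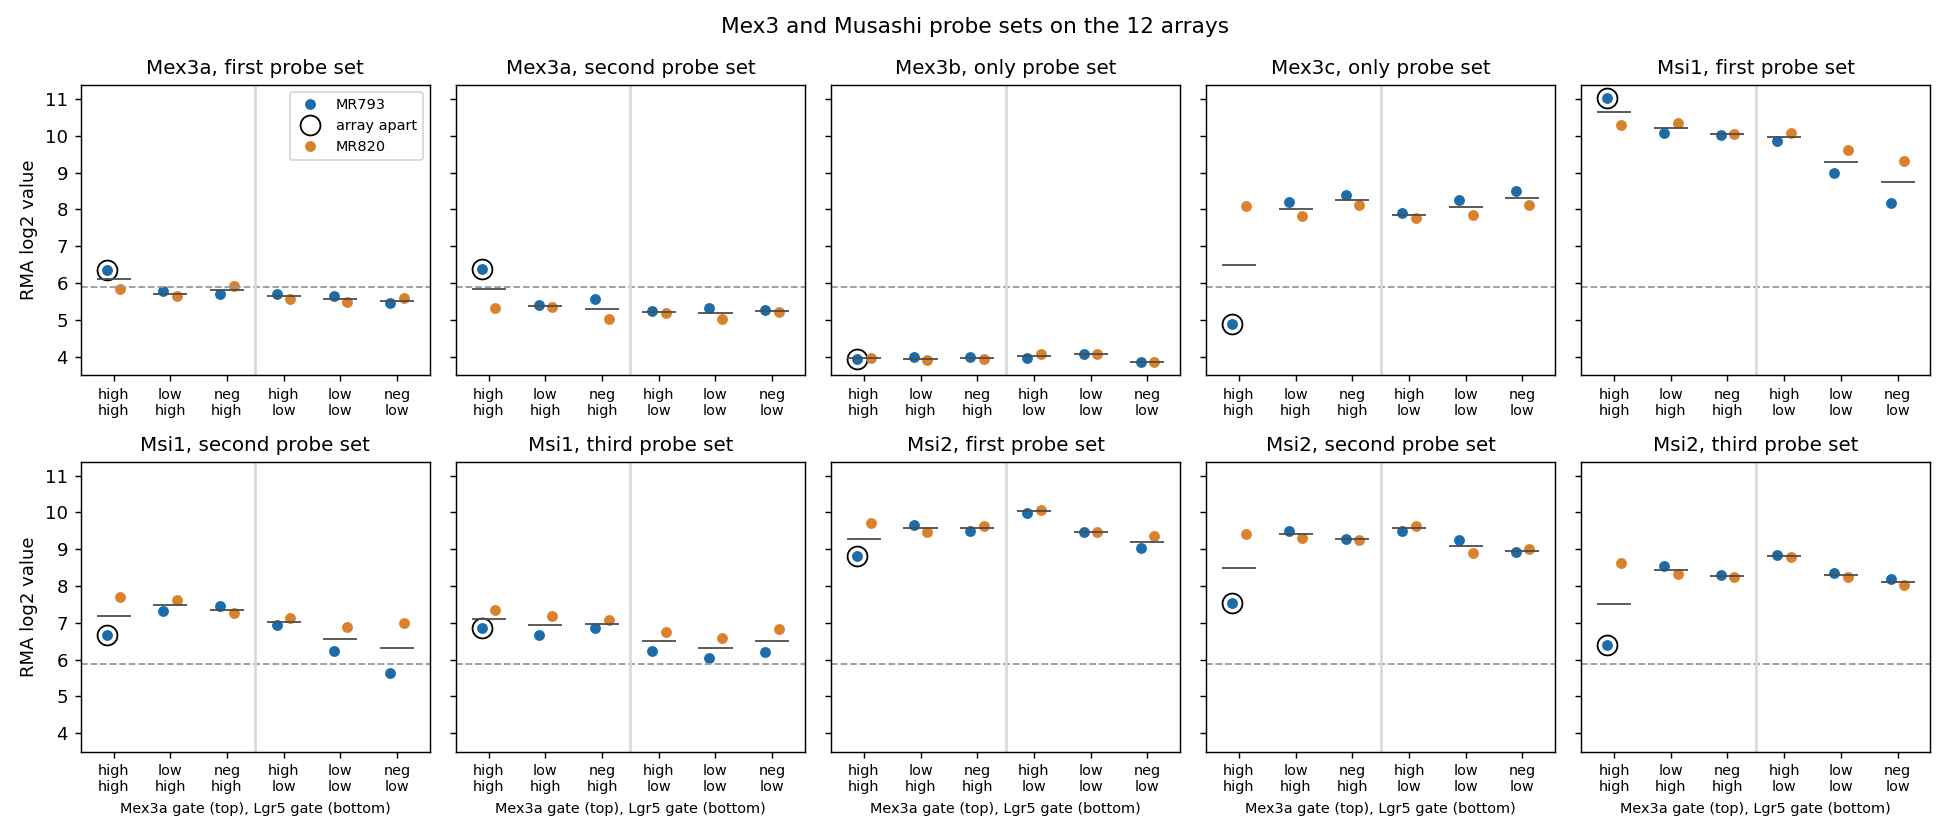
Log2 RMA value (vertical axis) of the 10 Mex3 and Musashi probe sets on each array, by population (horizontal axis, Mex3a gate above Lgr5 gate); blue points are MR793, orange points MR820, bars population means (n = 2), the dashed line the mean array median of 5.88 and the black ring the array that stood apart. The means of the first 2 Msi1 probe sets step down through the Lgr5-low populations, the Msi2 means peak in Mex3a-high Lgr5-low cells, and the ringed array carries the low Mex3c and Msi2 values.

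The mean level of Msi2 was highest in Mex3a-high Lgr5-low cells on all 3 probe sets. The first probe set was at 10.00 and 10.07 on the MR793 and MR820 arrays of that population. It was at 9.46 and 9.47 in Mex3a-low Lgr5-low cells, and at 9.05 and 9.37 in Mex3a-negative Lgr5-low cells. The arrays of these 3 populations did not overlap, and the order followed the Mex3a gate. How many of all probe sets separate in this way was not counted, here or for the overlaps given below. The second probe set was at 9.50 and 9.64 in the Mex3a-high against 8.91 and 9.02 in the Mex3a-negative cells of this gate, and the third at 8.86 and 8.78 against 8.19 and 8.03, again without overlap. In the Lgr5-high gate the first probe set was at 9.67 and 9.47 in Mex3a-low cells and at 9.50 and 9.64 in Mex3a-negative cells, which overlap each other. Mex3a-high Lgr5-high cells gave 8.81 on the array that stood apart and 9.72 on the MR820 array, so that the 2 arrays of this population lay apart. Ordered by population mean, the first probe set ran from Mex3a-high Lgr5-low (10.03) through Mex3a-low Lgr5-high (9.57), Mex3a-negative Lgr5-high (9.57), Mex3a-low Lgr5-low (9.47) and Mex3a-high Lgr5-high (9.27) to Mex3a-negative Lgr5-low (9.21). Among neighbours in this order, arrays did not overlap between Mex3a-high Lgr5-low and Mex3a-low Lgr5-high cells and between Mex3a-negative Lgr5-high and Mex3a-low Lgr5-low cells, and the remaining neighbours overlapped. Mex3a-low Lgr5-high cells also came next on the other 2 probe sets, overlapping Mex3a-high Lgr5-low cells on the second (9.51 and 9.31) but not on the third (8.55 and 8.34).

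Mex3a-high Lgr5-low cells exceeded Mex3a-negative Lgr5-low cells by 0.82 ± 0.27 (SE) on the first Msi2 probe set, 1.77-fold, by 0.95 in MR793 and 0.69 in MR820. The second probe set gave 0.60 ± 0.47, with 0.58 and 0.62 in the replicates. The third gave 0.71 ± 0.54, with 0.67 and 0.75. The direction was therefore the same in both replicates on all 3 probe sets, but none was called in the fit of all 12 arrays (limma adjusted p = 0.433, 1.00 and 1.00). In this comparison 1.23% of all probe sets were called (554 higher, 2 lower), and 0 of the 10 Mex3 and Musashi probe sets, with 3 of them at an unadjusted p under 0.05. Without the array that stood apart, which belongs to neither population, the differences were the same and all 3 Msi2 probe sets were called higher (adjusted p = 0.00740, 0.0453 and 0.0137), against 3.97% of all probe sets. The call was also made without the other Mex3a-high Lgr5-high array (adjusted p = 0.00758 for the first probe set), against 3.96% of all. That repeat is not a separate check. Neither Mex3a-high Lgr5-high array enters the comparison, and leaving out either one removes the spread between them from the fit. The labels also give a strip for each array (3 strips), and the MR793 arrays of the 2 populations compared share one while the MR820 arrays do not. With the strip as a block, the first Msi2 probe set gave 0.80 (adjusted p = 0.452).

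Msi2 in Mex3a-high Lgr5-low cells also stood above Mex3a-low Lgr5-low cells, where both replicate pairs lie within 1 strip. The differences were 0.56 (0.53 in MR793, 0.60 in MR820), 0.49 (0.24 and 0.73) and 0.52 (0.50 and 0.54) on the 3 probe sets. None was called among the 12 arrays, where 0.637% of all probe sets were. With the replicate as a block and without the array apart, the first and the third were called higher (adjusted p = 0.0189 and 0.0151), against 4.09% of all probe sets. Between Mex3a-low and Mex3a-negative Lgr5-low cells the first Msi2 probe set differed by 0.26 (0.42 and 0.10), the second by 0.11 with opposite signs in the replicates (0.34 and -0.11) and the third by 0.19 (0.16 and 0.21), and 0 of the 10 probe sets were called there (0.0111% of all, 1 of the 10 at an unadjusted p under 0.05).

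Msi1 was highest in Lgr5-high cells. Its brightest probe set, the first, was at 11.03 and 10.30 in Mex3a-high Lgr5-high cells (MR793 and MR820), 10.09 and 10.34 in Mex3a-low Lgr5-high cells, and 10.02 and 10.05 in Mex3a-negative Lgr5-high cells. In Lgr5-low cells it was at 9.87 and 10.07 in the Mex3a-high gate, 8.98 and 9.61 in the Mex3a-low gate, and 8.16 and 9.32 in the Mex3a-negative gate. The second probe set ranged from 6.66 to 7.69 in Lgr5-high and from 5.63 to 7.13 in Lgr5-low cells, and the third from 6.68 to 7.36 and from 6.04 to 6.82, so that both overlapped between the Lgr5 gates. On the first probe set Mex3a-high Lgr5-low cells overlapped Mex3a-negative Lgr5-high cells and lay below the other Lgr5-high populations. The Mex3a-low and -negative Lgr5-low cells lay below every other array. The population means fell into the order 10.66 ± 0.52 (SD, n = 2), 10.21 ± 0.18, 10.04 ± 0.02, 9.97 ± 0.14, 9.30 ± 0.45 and 8.74 ± 0.82, in the sequence of populations just given. Neighbours in that order overlapped except Mex3a-low with Mex3a-negative Lgr5-high cells and Mex3a-high with Mex3a-low Lgr5-low cells.

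Averaged over the 3 Mex3a gates, Lgr5-high cells stood above Lgr5-low cells by 0.97 ± 0.22 on the first Msi1 probe set, a 1.96-fold difference, with 1.38 in MR793 and 0.56 in MR820. The second probe set gave 0.70 ± 0.26 (0.89 and 0.52), and the third 0.56 ± 0.18 (0.64 and 0.48). All 3 had an unadjusted p under 0.05 and none was called (adjusted p = 0.102, 0.388 and 0.308), in a comparison where 0.822% of all probe sets were called, 62 higher and 308 lower. The replicate names pair the populations. With the replicate as a block the third Msi1 probe set was called higher (adjusted p = 0.0313), against 1.27% of all probe sets. With that block and without the array apart all 3 Msi1 probe sets were called, at 0.77 ± 0.13, 0.80 ± 0.17 and 0.56 ± 0.08 (adjusted p = 0.00363, 0.0136 and 0.00103), against 9.03% of all probe sets. Without the array apart and with no block none was (0.85, 0.87 and 0.64, adjusted p = 0.0565, 0.0814 and 0.0835), against 3.60% of all. Leaving out the Mex3a-negative Lgr5-low array of MR820 made the first probe set a call as well (1.16, adjusted p = 0.0252), and leaving out the MR820 array of Mex3a-high Lgr5-high cells, so that the array apart alone stands for its population, made the first and the third calls (adjusted p = 0.00249 and 0.0466), against 1.13% and 46.6% of all probe sets.

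Of the 3 strips, 1 holds only Lgr5-high arrays, 1 only Lgr5-low arrays and 1 both, so the Lgr5 comparison is largely one between strips. With the strip as a block the Lgr5 difference was 0.46, 0.69 and 0.44 on the 3 Msi1 probe sets, each with an adjusted p of 1.00. The 1 pair of Lgr5 gates within a Mex3a gate and replicate that shares a strip, Mex3a-high cells of MR820, gave 0.23, 0.56 and 0.60. Within single gates and replicates, the first Msi1 probe set was higher in the Lgr5-high cells in 6 of 6 pairs, from 0.23 to 1.86, and the second in 5 of 6, with -0.27 in the pair that holds the array apart. How many of all probe sets reach 6 of 6 was not counted.

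Within the Lgr5-low cells the first Msi1 probe set also followed the Mex3a gate. Mex3a-high cells exceeded Mex3a-negative cells by 1.23 ± 0.38, a 2.34-fold difference, by 1.71 in MR793 and 0.75 in MR820. It was 0.65 when the MR793 array of the Mex3a-negative population was left out, and 1.81 when its MR820 array was. It was not called (adjusted p = 0.345, and 0.0786 without the array apart). With the replicate as a block and the array apart left out it was called higher (1.23 ± 0.21, adjusted p = 0.00322), together with the 3 Msi2 probe sets, against 9.41% of all probe sets. The second Msi1 probe set gave 0.71 ± 0.46 (1.29 and 0.13), or 0.027 and 1.40 without the same 2 arrays, and the third, which lies near the array median, -0.02 ± 0.32 (0.03 and -0.06). The probe sets of Msi1 therefore disagree in this comparison, although over the 11 arrays without the array apart they correlated at 0.96 (the first with the second), 0.73 (the first with the third) and 0.84 (the second with the third). Mex3a-high Lgr5-low cells also differed from Mex3a-low Lgr5-low cells by 0.67 (0.89 and 0.45) on the first probe set, and Mex3a-low from Mex3a-negative cells by 0.55 (0.82 and 0.29), neither of them called. The last of these ran from -0.03 to 1.13 when the same 2 arrays were left out one at a time.

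**Figure D2:**
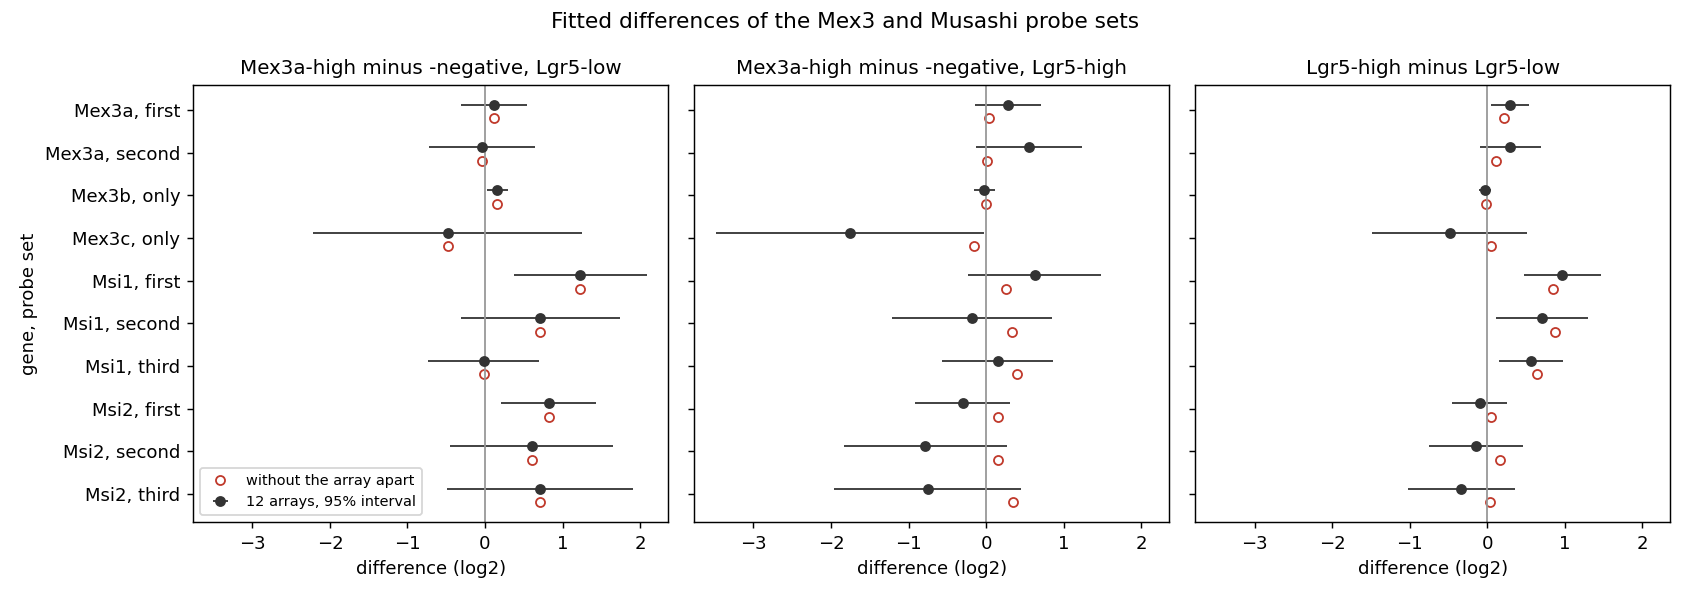
Fitted log2 difference (horizontal axis) of the 10 probe sets (vertical axis) for Mex3a-high minus Mex3a-negative cells in the Lgr5-low gate (left) and in the Lgr5-high gate (middle), and for Lgr5-high minus Lgr5-low cells (right); filled points with 95% intervals come from 12 arrays and open red points from 11 without the array apart. The left panel is the same with and without that array, while in the middle panel Mex3c moves from -1.76 to -0.15 and the Msi2 probe sets cross 0.

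Mex3c, a family member whose RING finger has ubiquitin ligase activity, was the one Mex3 gene with values clear of the array median. Its probe set was at 7.91 and 7.76 in Mex3a-high Lgr5-low cells, 8.25 and 7.86 in Mex3a-low Lgr5-low cells, and 8.51 and 8.13 in Mex3a-negative Lgr5-low cells (MR793 and MR820). In Lgr5-high cells it was at 8.20 and 7.83 in the Mex3a-low gate and 8.39 and 8.12 in the Mex3a-negative gate. Mex3a-high Lgr5-high cells gave 8.11 in MR820 and 4.89 on the array that stood apart, below the array medians. Within each replicate of the Lgr5-low gate the level was lowest in Mex3a-high and highest in Mex3a-negative cells, the reverse of the order of the first Msi1 and Msi2 probe sets. The difference was -0.48 ± 0.77 (-0.60 in MR793 and -0.36 in MR820, adjusted p = 1.00). It was called lower only with the replicate as a block and the array apart left out, at -0.48 ± 0.11 (adjusted p = 0.0194). That fit called 9.41% of all probe sets. Other fits with either change alone gave the same difference and no call, with an adjusted p of 0.272 without that array.

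In the Lgr5-high gate the Mex3c difference of Mex3a-high from Mex3a-negative cells was -1.76 ± 0.77, made of -3.50 in MR793 and -0.01 in MR820 (adjusted p = 0.542). It was -0.15 without the array apart. Between the Lgr5 gates it differed by -0.48 ± 0.45 with all arrays and by 0.05 without that one. Among the other 11 arrays the probe set kept between 7.76 and 8.51, so the spread of its 12 values comes mostly from 1 array.

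Mex3a itself is the gene by which the cells were divided, and its probe sets did not separate Mex3a-high from Mex3a-negative cells within either Lgr5 gate. The first was at 6.35 and 5.84 in Mex3a-high Lgr5-high cells, 5.79 and 5.63 in Mex3a-low Lgr5-high cells, and 5.71 and 5.91 in Mex3a-negative Lgr5-high cells. In the Lgr5-low gate it was at 5.71 and 5.57, 5.64 and 5.48, and 5.44 and 5.60 in the same sequence. The highest value is that of the array apart. The 3 populations of the Lgr5-low gate overlap, as do the outer 2 Mex3a gates of Lgr5-high cells. Within each Mex3a gate and replicate the value was higher in Lgr5-high cells, in 6 of 6 pairs. Only the Mex3a-high pair of MR820 shares a strip, and how many of all probe sets do so was again not counted. The second probe set was lower in Lgr5-high cells in the Mex3a-negative pair of MR820 (-0.195). On the first probe set Mex3a-high cells differed from Mex3a-negative cells by 0.12 ± 0.19 in the Lgr5-low gate, and by 0.29 ± 0.19 in the Lgr5-high gate, or 0.03 without the array apart. The second probe set gave -0.04 ± 0.30 in the Lgr5-low gate and 0.55 ± 0.30 in the Lgr5-high gate, or 0.02 without that array, and ranged from 5.01 to 5.57 on the other 11. The 2 probe sets correlated at 0.77 over 12 arrays and at 0.11 over 11. With both near the array median, they neither check nor contradict the Mex3a labels. Between the Lgr5 gates the first differed by 0.30 ± 0.11, with 0.35 in MR793 and 0.24 in MR820 (adjusted p = 0.373), and the second by 0.30 ± 0.18. With the strip as a block these were 0.29 and -0.13.

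Mex3b, a further KH-domain paralogue of Mex3a, was listed at 3.86 to 4.08 on all 12 arrays, below every array median. Its difference between Mex3a-high and Mex3a-negative Lgr5-low cells was 0.16 ± 0.06 (0.10 and 0.21, adjusted p = 0.612). At this level the array cannot show whether the gene differed.

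In the Lgr5-high gate 0 of the 10 probe sets were called between any pair of Mex3a gates, where limma called 0% of all probe sets. At an unadjusted p under 0.05 stood 1830 of all probe sets for Mex3a-high against -negative cells (1 of the 10), 1865 for high against low (0 of the 10) and 199 for low against negative (0 of the 10). Without the array apart 1, 1 and 0 probe sets of the whole array were called in the same order. The first Msi2 probe set differed between Mex3a-high and -negative cells by -0.30 ± 0.27 (-0.69 and 0.09), the second by -0.78 ± 0.47 (-1.74 and 0.17) and the third by -0.75 ± 0.54 (-1.89 and 0.39). Each sign was negative in MR793 alone, and the values were 0.15, 0.15 and 0.35 without the array apart. The first Msi1 probe set gave 0.62 ± 0.38 (1.00 and 0.25), or 0.26 without that array. Both replicate pairs of this comparison lie within 1 strip. Between Mex3a-low and -negative cells, which do not involve the array apart, the 10 probe sets differed by -0.24 (Mex3c) to 0.18 (first Msi1 probe set). The 95% interval of the first Msi2 probe set there ran from -0.61 to 0.62.

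Whether the step from Mex3a-negative to Mex3a-high cells differed between the Lgr5 gates was tested directly. The first Msi2 probe set gave -1.13 ± 0.39 (Lgr5-high minus Lgr5-low, -1.64 in MR793 and -0.61 in MR820, adjusted p = 0.881). Without the array apart it gave -0.67 (adjusted p = 0.348). The second and the third gave -1.39 ± 0.66 and -1.46 ± 0.76, and the first Msi1 probe set -0.60 ± 0.54. Of the 10 probe sets 0 were called, 1 had an unadjusted p under 0.05, and 0.331% of all were called. A difference of the Musashi pattern between the gates was therefore not shown.

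The Mex3a gates of Lgr5-low cells also differed in cell type markers, and some of these were higher in Mex3a-high cells, as the Msi2 values were. Tuft cell markers, genes of the chemosensory cells of the epithelium, were called higher in the Mex3a-high population of this gate than in the Mex3a-negative one for 11 of 12 measured (median difference 4.48), with mean levels of 10.09 to 10.13 against 5.95 to 6.02. Among them Dclk1, a tuft cell kinase, gave 6.27 ± 0.32 (adjusted p = 2.48e-05) and Avil, an actin-binding protein of these cells, 4.88 ± 0.29 (adjusted p = 4.23e-05). Enteroendocrine cell markers, genes of the hormone-producing cells, were higher for 17 of 21 (median 3.71), at 9.35 to 9.65 against 5.83 to 5.99. Paneth cell markers were higher for 3 of 6, at 10.02 to 10.11 against 7.78 to 8.64. Of those 6 differences only 4 were positive, and 5 had an unadjusted p under 0.05 in limma. Crypt base stem cell markers were called for 0 of 14 (median 0.05, at 9.13 to 9.21 against 8.74 to 9.34), and goblet cell, enterocyte and mitosis markers for 0 of 11, 0 of 13 and 0 of 14 (medians 0.17, 0.06 and -0.56). At an unadjusted p under 0.05 in limma stood 2 of the 14 stem cell, 1 of the 11 goblet cell, 0 of the 13 enterocyte and 7 of the 14 mitosis markers. When the array apart was left out, 21 of the 21 enteroendocrine markers and 1 of the 14 stem cell markers were called higher and 3 of the 14 mitosis markers lower. Of the 6 Paneth cell markers, 3 were then called higher and 1 lower. That fit called 3.97% of all probe sets. Immune cell markers were higher for 2 of 12, Ptprc and Lyz2, with 11 of the 12 near the array median. Neuronal and glial markers were higher for 2 of 8, Ret and Snap25, with all 8 near it. Mesenchymal and endothelial markers were called for 0 of 12, all near the median, and red blood cell markers for 0 of 2, with 0 of either list at an unadjusted p under 0.05.

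Mex3a-low Lgr5-low cells had a mean tuft marker level of 8.42 in MR793 and 7.54 in MR820. This lay between the 5.95 and 6.02 of Mex3a-negative and the 10.13 and 10.09 of Mex3a-high Lgr5-low cells. Their first Msi2 probe set, at 9.46 and 9.47, also lay between the values of those populations. Mex3a-low and -negative Lgr5-high cells had a tuft marker level of 5.83 to 6.30 and were no lower in Msi2, at 9.47 to 9.67. That contrast crosses the Lgr5 gates and lies largely between strips. The part of tuft or enteroendocrine cells in the Musashi values was not tested. Between the Lgr5 gates, crypt base stem cell markers were higher in Lgr5-high cells for 6 of 14 (median 0.82), and for 13 of 14 without the array apart. Enteroendocrine markers were lower for 11 of 21, tuft markers for 9 of 12, goblet cell markers for 3 of 11, neuronal and glial markers for 2 of 8, enterocyte markers for 1 of 13 (Krt20) and immune markers for 1 of 12 (Ptprc), while 1 of 6 Paneth cell markers was higher (Itln1). With that array left out, 16 enteroendocrine, 11 tuft and 8 goblet cell markers were called lower, in a fit that called 3.60% of all probe sets. Mitosis, mesenchymal and endothelial, and red blood cell markers were called for 0 of 14, 0 of 12 and 0 of 2. Their part in the Msi1 difference was not tested.

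**Figure D3:**
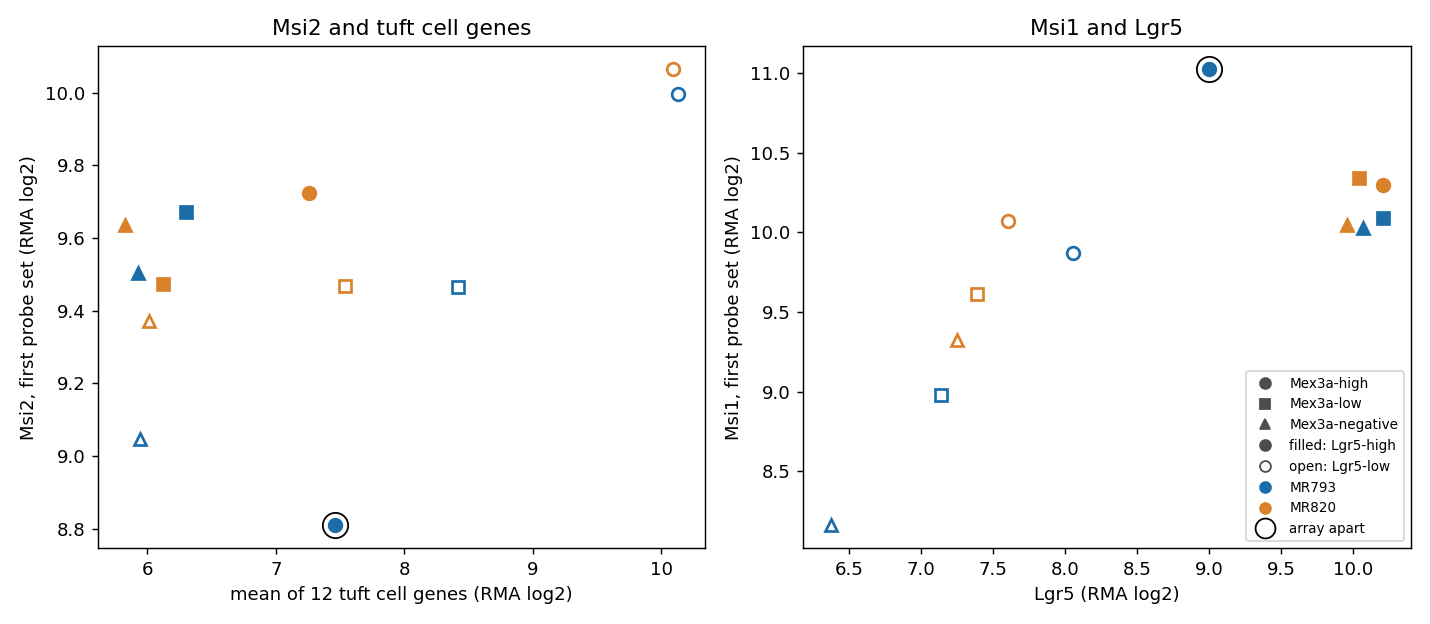
Left, the first Msi2 probe set (vertical axis) against the mean of 12 tuft cell genes (horizontal axis); right, the first Msi1 probe set (vertical axis) against Lgr5 (horizontal axis), all in RMA log2 units. Shape gives the Mex3a gate, filled symbols Lgr5-high and open symbols Lgr5-low cells, and colour the replicate. Mex3a-high Lgr5-low cells lie alone at the upper right of the left panel, and on the right all 6 Lgr5-high arrays lie above 10 on the vertical axis, with 5 of the 6 Lgr5-low arrays below it.

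Other genes of the same kinds were counted to set the Musashi and Mex3 values among their peers. Of 22 measured genes for other KH-domain RNA-binding proteins, limma called 0 in the Lgr5-low comparison of Mex3a-high with Mex3a-negative cells and 0 between the Lgr5 gates, with 0 at an unadjusted p under 0.05 in both. In the first of these their median was -0.06 (all probe sets -0.02, the 10 probe sets above 0.38). The lists count each gene once, while the 10 probe sets count Msi1 and Msi2 3 times each. Read from their brightest probe sets, Mex3a, Mex3b, Mex3c, Msi1 and Msi2 gave 0.12, 0.16, -0.48, 1.23 and 0.82. Among the KH-domain genes the smallest p values belonged to Igf2bp3 (-0.39 ± 0.22), which binds mRNAs to stabilise them, and Fxr2 (0.35 ± 0.21), a relative of the fragile X protein. Without the array apart 1 of the 22 was called, Akap1, an anchoring protein, at -0.60 (adjusted p = 0.0207), against 3.97% of all probe sets. Of 27 genes for other RRM proteins 0 were called in that comparison (median -0.01), with 4 at an unadjusted p under 0.05. The largest differences were those of Celf2, a splicing and stability factor, at 1.30 ± 0.28 (1.60 and 1.00, adjusted p = 0.0775), and Cpeb4, which controls translation through the poly(A) tail, at 1.15 ± 0.25 (0.54 and 1.75, adjusted p = 0.0803). Without the array apart 3 of the 27 were called higher, Celf2 and Cpeb4 (adjusted p = 0.00277 and 0.0258) and Rbm38, which binds the p21 message, at 0.82 (adjusted p = 0.0104). The share of all probe sets was again 3.97%. Between the Lgr5 gates Cpeb4 was the 1 RRM gene called, lower in Lgr5-high cells by -0.85 ± 0.15 (adjusted p = 0.0323), at means of 4.36 and 5.21, both below the array medians. Cpeb4 was again called lower without the array apart, and Tia1, a translational repressor, was called higher, against 3.60% of all probe sets. Of 19 other regulators of mRNA stability and translation 0 were called in either comparison (medians -0.04 and -0.08, with 0 and 3 at an unadjusted p under 0.05), with Ddx6, a decay helicase, at 0.24 and Pabpc4, a poly(A)-binding protein, at -0.23 in the Lgr5-low gate. Of the 19, 2 were called higher in Lgr5-high cells without the array apart, Zfp36l1 (0.55) and Pabpc1 (0.29), against 3.60% of all probe sets.

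Genes reported as targets of these proteins were counted in the same way. Of the 6 measured, limma called 0 in the same 2 comparisons, with 1 and 2 at an unadjusted p under 0.05, and their median in Mex3a-high against Mex3a-negative Lgr5-low cells was -0.07. Cdkn1a, the p21 gene, had a level of 11.65 in Mex3a-high Lgr5-low cells and 9.65 in Mex3a-negative ones, a difference of 2.01 ± 0.53 (1.29 and 2.73, adjusted p = 0.183). Between the Lgr5 gates (Lgr5-high minus Lgr5-low) it differed by -1.52 ± 0.31 (-1.80 and -1.25, adjusted p = 0.0642), and was called lower without the array apart (adjusted p = 0.0335). Bcl2, whose message Mex3d binds, differed by 0.53 ± 0.14 between the Lgr5 gates (adjusted p = 0.190, and 0.0301 without the array apart). Lrig1, an inhibitor of growth factor receptors, gave 0.38, and 0.69 without that array, when it was called (adjusted p = 0.0145). Without that array 3.60% of all probe sets were called between the Lgr5 gates. Transcript levels say nothing about translation, the step at which Musashi proteins mostly act.

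**Figure D4:**
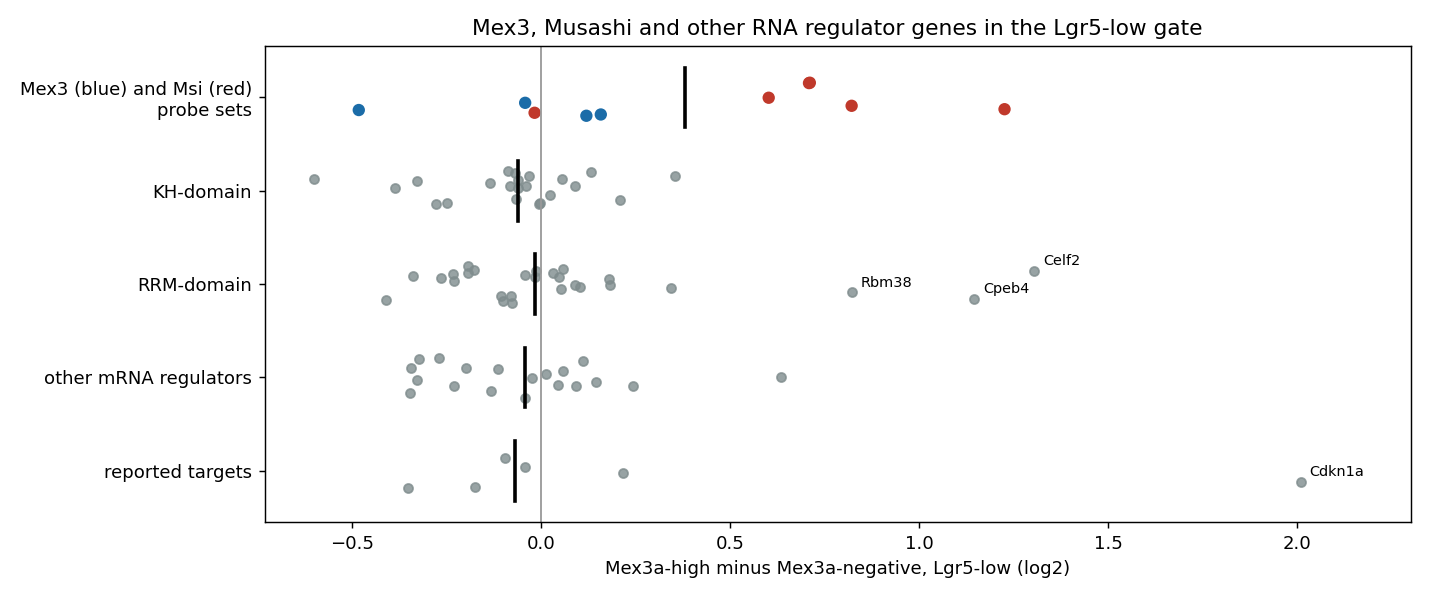
Log2 difference between Mex3a-high and Mex3a-negative Lgr5-low cells (horizontal axis) for the Mex3 (blue) and Msi (red) probe sets and for 1 probe set per gene of 4 other gene lists (grey); black bars are medians and the vertical scatter within a row carries no value. Of the Msi probe sets 5 of 6 lie right of 0.5, the medians of the other lists lie between -0.07 and -0.01, and Celf2, Cpeb4, Rbm38 and Cdkn1a lie farthest right in their lists. The Mex3 and Msi row counts Msi1 and Msi2 with 3 probe sets each.

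The genes whose pattern was most like those of the brightest Msi1, Msi2 and Mex3c probe sets were taken by Pearson correlation over the 12 arrays among 4483 genes of sufficient level and spread. The arrays share replicates, strips and the array apart, and no p is given. For Msi1 these were Kif12 (0.96), Tmem131l (0.96), Zc3h7b (0.94), Utrn (0.94) and Prr12 (0.93), and each stayed at 0.91 or more over the 11 other arrays. The choice of genes still depends on the array apart. Over the 11 the closest to Msi1 were Sorcs2 (0.98), Ago1 (0.98) and Neo1 (0.97), of which Ago1 and Neo1 were at -0.13 and -0.09 over the 12. For Msi2 the closest over the 12 were Atxn10 (0.97), Tmem176b (0.96), Cpm (0.96), Ssbp3 (0.94) and Cd24a (0.94), each at 0.90 or more without that array. Over the 11, Psd3 (0.97) came first and Atxn10 (0.96) next. For Mex3c the closest were Ankmy2, Net1, Fem1c, Nrip1 and Nfatc3, all at 0.99 over 12 arrays and at 0.79 to 0.92 over 11, so their likeness rests largely on the array apart.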

How the data were processed

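The deposited table holds log2 expression values per probe set. The authors used RMA, per the submitters' processing notes, whose text names no version, and the deposited values were taken unchanged. Its 12 columns were joined to the samples by name, with 0 left over. Of 45141 probe sets, 104 controls were left out. Genes come from the platform annotation, which gives 28898 probe sets 1 gene and 551 several; 15588 are not listed.

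Each probe set was fitted with limma 3.58.1 (R 4.3.3) with 1 mean for each of 6 populations, no block, and trended eBayes (6 residual and 3.56 prior degrees of freedom). Benjamini-Hochberg adjustment ran over 45037 probe sets. SE is limma's. The fit was run on simulated data with independent arrays and large added changes. That simulation had no array apart, shared replicate shift or strip effect, so it checks the calculation alone. Genes of the lists were read from their brightest single-gene probe set, and the named ones are the called members (up to 5, otherwise the 4 of smallest p) or, with none called, the 2 of smallest p. Olfm4, Akap1, Rbm38, Tia1, Zfp36l1, Pabpc1 and Lrig1 were added after their values were seen. The lists are the RNA-binding and target lists and the cell type markers named above. Members and lists were chosen with earlier results of these data known.

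The replicate named in the labels pairs the populations. Checked over pairs of populations, replicate differences correlated over 0.1 in 14 of 15 (lowest -0.129, median 0.380), and in 10 of 10 without the population of the array apart. The number of arrays limits precision, and p values measure the spread between 2 biological replicates. The alternatives were the replicate and strip as blocks, other normalizations, filters, weights and eBayes settings, and each array left out. Leaving out the array apart together with a block, and leaving out its whole population, were added after the data were seen.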

Additional observations from a re-analysis of the deposited data

How the results depend on the processing

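Over all alternatives, 760 of 833 values for single probe sets and 187 of 202 counts of called Mex3 and Musashi probe sets kept their direction and side of the threshold. Many alternatives, such as the eBayes settings or leaving out an array of another population, cannot change a fitted difference. The counts, at 0 in the main fit, could only stay or rise. These totals are therefore a weak check. The count, 0 of 10 in each comparison, rose for Mex3a-high against -negative Lgr5-low cells to 3 with array weights (4.26% of all probe sets called), 1 in the Lgr5-low gate alone (2.12%), 3 without the population of the array apart (3.97%), and, with that array alone left out, 5 with a replicate block (9.41%) and 2 with a strip block (3.29%). It rose to 2 for high against low Lgr5-low cells with the replicate block and that array left out. It rose between the Lgr5 gates to 1 with the replicate block and to 3 when that array was left out too. The replicate block alone, which respects the pairing, changed no other call. The shares of all probe sets called in these fits with a replicate block are given with the results above. Both Mex3a-high Lgr5-high arrays had an array weight of 0.092, so the weighted fit and the fit without that population are not separate checks. With 1 array left out in turn the counts ran from 0 to 3 for high against negative Lgr5-low cells, 0 to 8 between the Lgr5 gates, 0 to 6 for high against negative and for high against low Lgr5-high cells, and 0 to 5 for the difference between gates. The first of these counts was highest without either Mex3a-high Lgr5-high array, and each of the others without the MR820 array of Mex3a-high Lgr5-high cells, when the array apart alone stands for that population. That fit called 46.6%, 54.6%, 53.4% and 40.6% of all probe sets in those 4 comparisons.

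Among the 31 values whose sign turned, those for high against negative Lgr5-high cells came with the array apart left out and a replicate block (Mex3c 0.0062, Msi2 0.12, 0.19 and 0.42) or a strip block (first Mex3a -0.067, Msi2 0.088, 0.17 and 0.39). In Lgr5-low cells the second Mex3a probe set gave 0.047 with the strip block, 0.017 with both blocks and 0.047 with the strip block without the array apart. Between the Lgr5 gates the strip block, alone or with the replicate block, gave -0.13 for the second Mex3a probe set, 0.68 for Mex3c and 0.22 for the first Msi2 probe set. Without the array apart these were -0.039, 0.099 and 0.094 with the strip block, and Mex3c and Msi2 gave 0.11 and 0.042 with the replicate block. Quantile normalization again gave 0.013 for Msi2. With 1 array left out in turn, Mex3c ran from -1.02 to 0.055 and the first Msi2 probe set from -0.25 to 0.053 between the Lgr5 gates. Msi2 ran from -0.76 to 0.15, -1.72 to 0.15 and -1.86 to 0.35 for high against negative Lgr5-high cells, Msi1 from -0.027 to 1.13 for low against negative Lgr5-low cells, and the third Msi1 probe set from -0.33 to 0.29 for high against negative Lgr5-low cells. The cause was not tested. Signal near the array median limits Mex3a and the third Msi1 probe set, and signal far below it limits Mex3b.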
